A study of Mus musculus with 383 samples.

Results

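Axon guidance ligands and receptors were followed across single nuclei of cholinergic neurons of the mouse vagal motor nucleus. Members were all rows of the count table named as a Slit, Robo, netrin, Dcc, Unc5, semaphorin, neuropilin, plexin, ephrin or Eph receptor. Of 29779 genes in the table, 68 met this rule, 34 ligands and 34 receptors. They were described over the 316 of 383 nuclei in which at least 1000 genes had a read.

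This nucleus of the brainstem, the dorsal motor nucleus of the vagus, holds the visceral motor neurons that send the vagus nerve's motor axons to the gut and other organs. Male Chat-IRES-Cre mice on a C57BL/6 background, in which cholinergic neurons make Cre recombinase, received 100 nL of AAV9-DIO-H2b-mCherry at 10 weeks of age, a virus that marks the nuclei of Cre-expressing cells with a red protein. Tissue was taken 16 days later, at 12 weeks, and pooled. Red nuclei that also took up a DNA dye were sorted singly into 96-well plates, and their RNA was copied with the Smart-seq2 method and 22 cycles of PCR. All nuclei form 1 group with 1 genotype and 1 treatment, and the labels name no animal, so the series is 1 sample. Nuclei of 1 sample are not replicates, no test was made, and differences are reported by fixed rules of size.

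Axon guidance molecules steer growing axons by attraction or repulsion, and many stay on in adult neurons, where they act on synapses, dendrites and axon repair. Slits act through Robo receptors, netrins through Dcc and the Unc5 receptors, and secreted class 3 semaphorins through a neuropilin that binds the ligand and a plexin that signals. Membrane semaphorins mostly bind plexins directly. Ephrins and Eph receptors act between touching cells. Ephrin-A proteins are held by a lipid anchor and mainly bind EphA receptors, while ephrin-B proteins cross the membrane and mainly bind EphB receptors.

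The kept nuclei held a median of 1440080 reads (lowest 1590, highest 4699420) and a median of 11234.5 genes with a read. Reads were copied by PCR without molecular identifiers, so the exact (Clopper-Pearson) 95% intervals below cover counting error only. Markers of other cell types were also found: in visceral motor-like nuclei thinned to 500000 reads each, the mean share of nuclei with a read was 31.7% over 5 oligodendrocyte markers, 21.2% over 5 astrocyte markers, 22.3% over 5 vascular markers and 12.2% over 5 microglial markers. Single markers in these nuclei ranged from 2.20% for Vtn and Tmem119 to 74.7% for Mbp. Shares of members at or below the means have a size also seen for genes that cholinergic neurons are not known for. The part of other cells' RNA in the members' shares was not tested. In addition, exons of 17 members overlap those of another annotated gene, 13 of them a gene that is also in the table (Unc5a with Hk3 and Epha1 with Zyx, for example). Whether the counting used strand is not given in the sources used here, so such reads may be shared.

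Most of the family was found in most nuclei. A median of 42 members had a read in a nucleus, with a range of 8 to 57, and members took a median of 1.25% of a nucleus's reads. In all, 43 of the 68 members were found in over 50% of nuclei, 21 ligands and 22 receptors, where 35.1% of all genes with a read were. Between the common and the rare members lay little: 20 members were in over 90% of nuclei, 19 in under 20%, and only 6 between 20% and 50%. Of 57 further genes of these pathways, such as co-receptors and the enzymes that act below the receptors, 51 were in over 50% of nuclei.

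**Figure D1:**
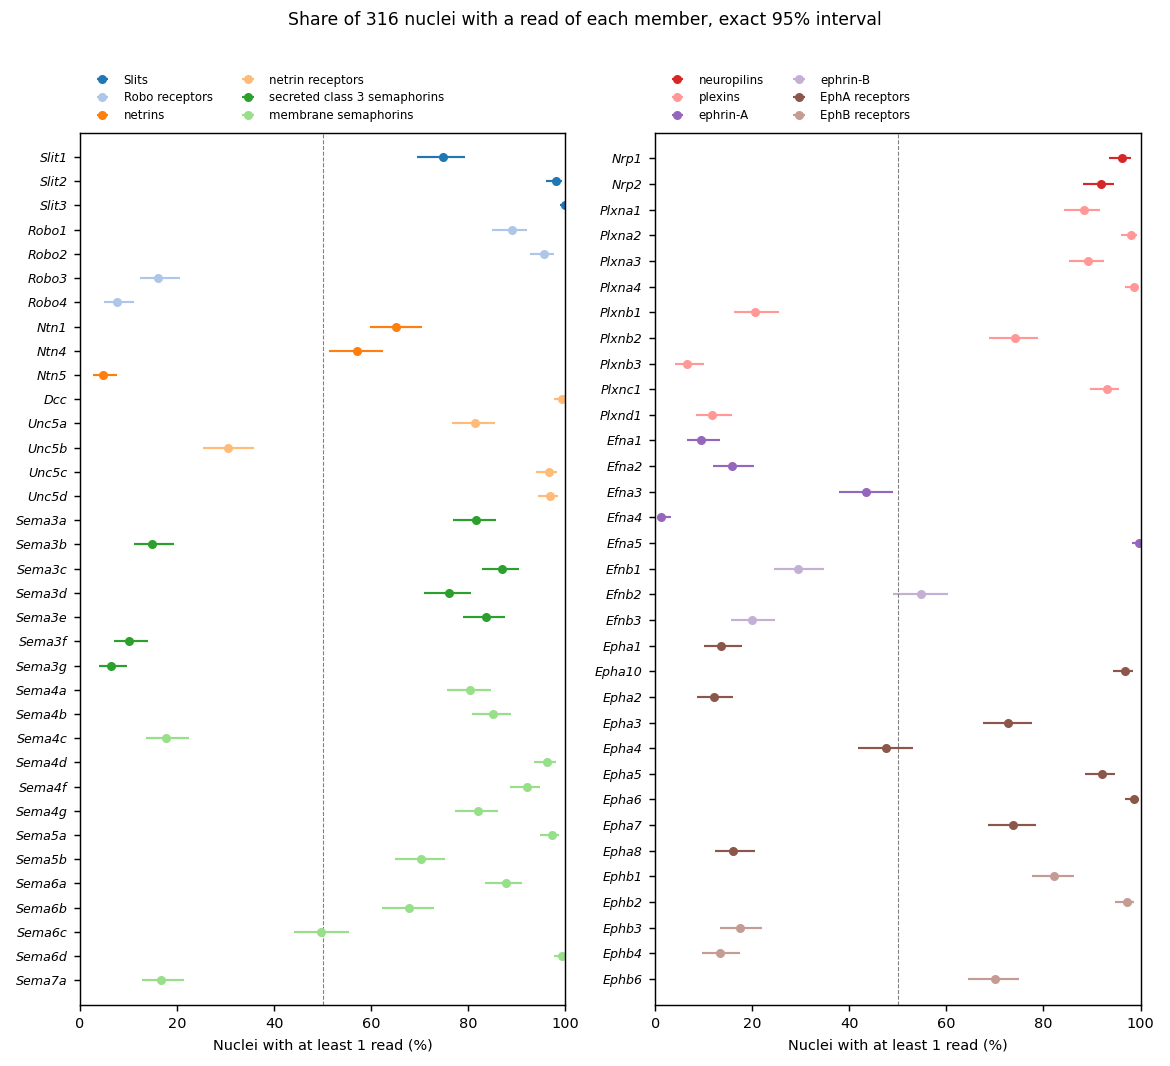
Share of the 316 nuclei with at least 1 read of each of the 68 members (horizontal axis, %), coloured by family, with exact 95% intervals; the dashed line marks 50%. Most members sit either above 50% or below 20%, and Slit3 reaches 100% while Efna4 is at 1.27%.

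Slits are large secreted ligands. Slit3 was the one member with a read in all 316 nuclei, at 1.54 CPM (reads of the gene per 1000000 reads of the nucleus) in the lowest nucleus, 873 in the median and 3812 in the highest. Slit2 was found in 98.1% of nuclei (95.9 to 99.3%) with a median of 527 CPM. Slit1 was rarer, in 74.7% (69.5 to 79.4%) with a median of 18.4 CPM. Per kilobase of exon, the mean level of Slit3 was 159 CPM, against 23.6 for Slit2 and 6.57 for Slit1. Per kilobase of gene span the order of the first 2 was the opposite, with 1.64 CPM for Slit3, 1.85 for Slit2 and 0.27 for Slit1.

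The Robo receptors fell into a common and a rare pair. Robo2 was in 95.6% of nuclei (92.7 to 97.6%) at a median of 131 CPM, and Robo1 in 88.9% (84.9 to 92.2%) at a median of 55.6 CPM. Robo3, known from axons that cross the midline, was in 16.1%, and Robo4, known from blood vessels, in 7.59% (4.93 to 11.1%). Both values are below 22.3%, the mean share of the vascular markers in thinned visceral motor-like nuclei, but single vascular markers differed widely. At full depth, as for the Robo shares, Pecam1 was in 67.7% of nuclei and Flt1 in 63.3%. Rgs5 was in 13.0%, Cldn5 in 3.48% and Vtn in 2.85%. Robo3 thus lay between Rgs5 and Flt1, and Robo4 between Cldn5 and Rgs5.

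Netrins were low while most of their receptors were high. Ntn1, the classical midline attractant, was in 65.2% of nuclei (59.7 to 70.4%) with a median of 3.67 CPM and a highest value of 452 CPM. Ntn4 was in 57.0% and Ntn5 in 4.75%. Dcc, the attractive netrin receptor, had the highest mean of all members before correction for length, 1920 CPM, and was found in 99.4% of nuclei, at a median of 1248 CPM and up to 9015 CPM. The repulsive receptors Unc5d and Unc5c were in 96.8% and 96.5% of nuclei, at medians of 710 and 640 CPM. Unc5a was in 81.3% at a median of 13.0 CPM, and Unc5b in 30.4% (25.4 to 35.8%). Summed over the 5 receptors, the median was 4010 CPM, and summed over the 3 netrins it was 19.4 CPM.

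Among the secreted class 3 semaphorins, 4 of 7 were in over 50% of nuclei. Sema3c was in 87.0% (82.8 to 90.5%), Sema3e in 83.5%, Sema3a in 81.6% and Sema3d in 75.9%, and their medians over all nuclei were low, between 2.89 CPM for Sema3d and 25.0 CPM for Sema3a. Sema3c ranged from 0 to 971 CPM with a median of 22.8 CPM. Sema3b was in 14.9%, Sema3f in 10.1% and Sema3g in 6.33% of nuclei.

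Membrane semaphorins were led by Sema6d, a ligand of the class A plexins. Sema6d was in 99.4% of nuclei at a median of 966 CPM, and Sema5a in 97.2% (94.7 to 98.7%) at a median of 640 CPM. Sema4d was in 96.2%, Sema4f in 92.1%, Sema6a in 87.7%, Sema4b in 85.1%, Sema4g in 82.0%, Sema4a in 80.4%, Sema5b in 70.3% and Sema6b in 67.7%. The 3 lowest of the 13 were Sema6c at 49.7%, Sema4c at 17.7% and Sema7a, the lipid-anchored semaphorin, at 16.8%. The mean of Sema6c, 23.3 CPM, rests on 1 nucleus with 4409 CPM and is 9.38 CPM without it; the means of 3 other members (Plxnd1, Efna4 and Epha8) also fall by more than 1.5 times without their highest nucleus. Kept nuclei held as few as 1590 reads, and in a shallow nucleus a few reads give a high CPM. Highest values and means can therefore rest on few reads.

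Both neuropilins were common: Nrp1 was in 96.2% of nuclei at a median of 269 CPM, and Nrp2 in 91.8% at a median of 210 CPM. Of the 9 plexins, Plxna4 was in 98.7% at a median of 625 CPM and Plxna2 in 98.1% at a median of 194 CPM. Plxnc1, the receptor of Sema7a, was in 93.0%. Plxna3 was in 89.2%, Plxna1 in 88.3% and Plxnb2 in 74.1%. The 3 lowest were Plxnb1 at 20.6%, Plxnd1, a receptor best known from blood vessels, at 11.7%, and Plxnb3 at 6.65%.

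Among the ephrins, Efna5 stood above the other 7. It was in 99.7% of nuclei (98.2 to 100.0%), from 0 to 4921 CPM with a median of 949 CPM, and it had the highest mean of all members per kilobase of exon, 287 CPM. Efna3 was in 43.4%, Efna2 in 15.8%, Efna1 in 9.49% and Efna4 in 1.27% of nuclei. Of the ephrin-B ligands, Efnb2 was in 54.7%, Efnb1 in 29.4% and Efnb3 in 19.9%.

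Several EphA receptors shared nuclei with Efna5. Epha6 was in 98.7% of nuclei at a median of 366 CPM, Epha10, whose kinase domain is inactive, in 96.8% at a median of 102 CPM, and Epha5 in 92.1% at a median of 52.7 CPM. Epha7 was in 73.7% and Epha3 in 72.8%. Epha4, a receptor for both ephrin classes that guides motor axons in the limb, was in 47.5% (41.9 to 53.1%), so its median was 0. Its highest value was 645 CPM, which in a shallow nucleus can be a few reads. Epha8 at 16.1%, Epha1 at 13.6% and Epha2 at 12.0% were the lowest. Among EphB receptors, Ephb2 was in 97.2%, Ephb1 in 82.3%, the kinase-inactive Ephb6 in 69.9%, Ephb3 in 17.4% and Ephb4 in 13.3%.

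Gene length moved with these levels. Over the 68 members, the mean CPM had a rank correlation of 0.81 with the length of the gene from its first to last base and of 0.71 with the length of its exons; members are not independent, and no test was made. Dcc spans 1097 kb and Plxna3 15.6 kb. Nuclear RNA holds unspliced transcripts, so both scales are given: per kilobase of exon the order was led by Efna5 (287 CPM), Slit3 (159), Unc5d (156) and Dcc (146), and per kilobase of gene span by Plxna3 (4.88 CPM) and Efna5 (4.18). Efna5 thus led on the exon scale and came next after Plxna3 on the span scale.

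Ligands and their receptors were compared in 36 pairs known to bind. Reads of both genes were in over 50% of nuclei for 20 pairs, in over 90% for 3 and in under 20% for 11. The 3 were Slit3 with Robo2 (95.6%, interval 92.7 to 97.6%), Slit2 with Robo2 (94.0%, 90.8 to 96.3%) and Efna5 with Epha5 (92.1%, 88.5 to 94.8%). Slit3 had a read in 100% of nuclei and Efna5 in 99.7%. The joint shares with Slit3 and Efna5 here therefore equal those of the receptors alone, 95.6% for Robo2 and 92.1% for Epha5. Pairs not known to bind were not compared, so the counts do not show that partners share nuclei more than other genes. Sema6d with Plxna1 was at 88.0%, Sema6a with Plxna4 at 87.3%, Sema3c with Nrp1 at 83.9% and Ntn1 with Dcc at 65.2%. In the last pair every nucleus with a Ntn1 read also had a Dcc read at full depth, since both shares are 206 nuclei, and Dcc was almost everywhere. The receptor's share was also compared between thinned nuclei with and without the ligand, and pairs went in both directions. As examples, Robo1 was found in 86.3% of 211 nuclei with Slit1 and 77.4% of 84 without. Nrp2 was found in 78.6% of 28 with Sema3f and 95.1% of 267 without. Plxnc1 was found in 93.2% of 44 with Sema7a and 93.2% of 251 without.

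Other pairs lacked 1 partner in most nuclei. Sema4d was in 96.2% of nuclei, but its receptor Plxnb1 in 20.6%, and both were in 19.3%. Sema3e was in 83.5% and its direct receptor Plxnd1 in 11.7%, with both in 9.81%. Sema5a and Plxnb3 were together in 6.65%, Sema3f and Nrp2 in 8.54%, Efna1 and Epha4 in 4.43%, Efnb2 and Ephb4 in 9.18%, and Efnb3 and Ephb3 in 4.43%. These shares are within single nuclei and say nothing of partners on other cells.

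**Figure D2:**
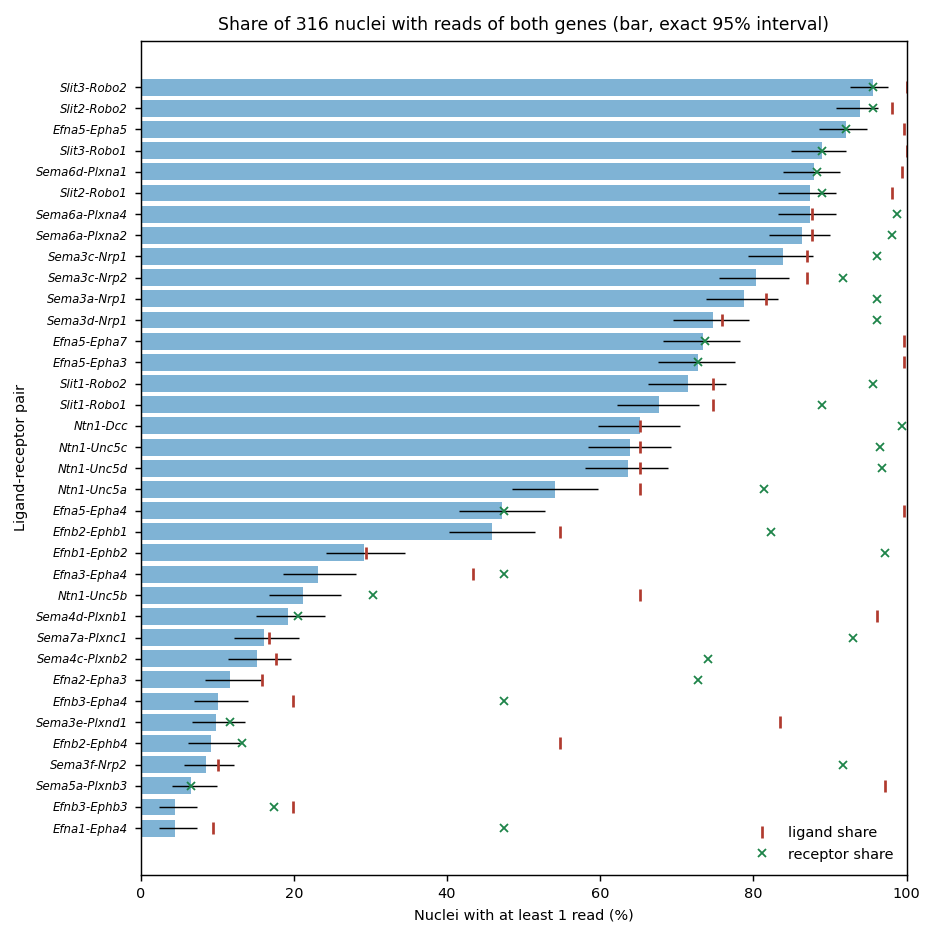
Share of the 316 nuclei with at least 1 read of both genes of each of 36 ligand-receptor pairs (bars, with exact 95% intervals), beside the share of the ligand alone (vertical tick) and of the receptor alone (cross). Slit3 with Robo2 is highest at 95.6%, and the pairs at the bottom have 1 or both partners in few nuclei.

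The nuclei were clustered without the members and without the listed pathway genes, and clusters were named by markers. Of 12 clusters, 11 with 294 nuclei were visceral motor-like and 1 with 22 nuclei was somatic motor-like. In the visceral motor-like nuclei thinned to the same depth, Tbx20, a factor of visceral motor neurons, was in 93.0%, while Isl2 and Mnx1, factors of somatic motor neurons, were each in 1.47%. In the cluster of 22, Isl2 was in 40.9%, Mnx1 in 31.8%, Calca and Calcb, the genes of the CGRP peptides, in 63.6% each, and after thinning no nucleus had a read of Tbx3 or Phox2a.

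In the cluster of 22, 4 EphA receptors and 3 semaphorins were higher, and Efna5, Sema5a and Plxnb1 were lower; of these 10, Sema3d, Sema3e and Plxnb1 missed the limit without 1 nucleus. By level, a member was counted where the mean CPM differed at least 3-fold and the higher mean was at least 5 CPM. Of 49 members that could meet the rule, 7 were higher in the cluster of 22 (4.36% of all genes) and 3 were lower (8.87% of all genes). In such comparisons, here and below, all genes are those of the count table that could meet the same rule. By share, with at least 40 percentage points and intervals that do not overlap, 1 of 47 was higher (0.901% of all genes) and none lower (1.24% of all genes). Without the highest nucleus of the higher class, the mean in the cluster of 22 was 53.1 CPM in place of 61.3 CPM for Sema3d, 46.0 in place of 67.2 CPM for Sema3e and 6.01 in place of 9.35 CPM for Sema7a, which still met the rule. No p-value belongs to these counts, because the nuclei come from 1 sample. The median log2 ratio, the cluster of 22 over visceral, was 0.17 for the members and −0.14 for all genes.

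Epha4 was the member higher by both rules. It was found in 81.8% of the cluster of 22 after thinning (59.7 to 94.8%) and in 35.2% of 273 visceral motor-like nuclei (29.5 to 41.1%), with means of 102 and 16.0 CPM. Epha5 was found in both classes, and its mean was 409 CPM against 93.5 CPM; all 22 nuclei lay above the visceral motor-like median of 45.2 CPM, the lowest at 157 CPM. Epha3 had means of 144 and 28.9 CPM, and Epha7 of 111 and 23.5 CPM. In each of the 4 genes the 2 classes overlapped, since the highest visceral motor-like nucleus exceeded the median of the cluster of 22.

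The cluster of 22 was not uniform. When only the 313 nuclei with at least 2000 genes were clustered, again without the members, 14 of the 22 stayed somatic motor-like and 8 joined visceral motor-like clusters. With at least 500 genes, a mitochondrial limit, all genes or scaled values, all 22 stayed somatic motor-like. In the 14, Calcb was found in 14, Lhx4 in 13, Isl1 in 12, Calca in 11, Chodl in 10, Isl2 in 9 and Mnx1 in 8. In the 8, there was no read of Calcb, Isl1, Isl2, Mnx1 or of Prph, a filament gene of motor neurons, while Chat was found in all 8 and Tbx20 in 2. Clusters were named by these same markers, and the markers were not held out of the clustering, so they are no separate support for the division. As described, the 14 carry the somatic motor markers, and the 8 are cholinergic nuclei with few markers of either class. The exception was Nos1, a gene of the visceral motor list found in 7 of the 8 and in 9 of the 14. Calca was in 3 of the 8, Lhx4 in 2 and Chodl in 1. The 8 were led by Nptx1, Penk and Unc13c, and they are left unnamed. This division was chosen after the data were seen. Median depth was 1733960 reads in the 14 and 1402380 in the 8.

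Set against the 294 visceral motor-like nuclei, 6 of 50 members were higher in the 14 by level (4.7% of all genes) and 8 were lower (11.9%). By share 1 of 47 was higher (2.2%) and none was lower (1.51%). In the 8, 10 of 51 were higher by level (7.9%) and 5 lower (16.6%), and by share none of 47 was higher (0.718%) and 1 was lower (3.73%). With so few nuclei 1 nucleus can make a call: without the highest nucleus of the higher group, 4 of the 6 and 5 of the 8 kept it in the 14, and 6 of the 10 and 4 of the 5 in the 8. The calls lost in the 14 were Sema6a, Epha7, Sema6c, Plxnb1 and Epha8, and in the 8 Ntn1, Sema3f, Efnb2, Epha3 and Plxnb1.

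Epha3, Epha4, Epha5 and Epha7 were higher in both sets than in the pooled visceral motor-like nuclei. Single visceral motor-like clusters, described below, came nearer to the sets. Means were 323 CPM for Epha5 in cluster 8 and 100 CPM for Epha7 in cluster 10. In cluster 9 they were 76.3 CPM for Epha4 and 66.8 CPM for Epha3. Epha5 had a mean of 351 CPM in the 14 (lowest 157, median 301, highest 817) and 510 CPM in the 8 (211, 418 and 1192). Epha4 was found in 12 of the 14 with a mean of 100.4 CPM and in 6 of the 8 with a mean of 105 CPM. Epha7 was found in all nuclei of both sets, with means of 87.9 and 151 CPM, and Epha3 in 13 of 14 and 6 of 8, with means of 158 and 118 CPM. Without the highest of the 8, their means there were 56.7 CPM for Epha4, 97.4 CPM for Epha7 and 71.6 CPM for Epha3. Plxnb1 was lower in both, with a read in 2 of the 14 and in none of the 8, but its visceral motor-like mean of 5.50 CPM drops to 4.57 CPM without 1 nucleus, under the limit.

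The ligands Efna5 and Sema5a were low in the 14 in particular. Sema5a, a transmembrane semaphorin with both attractive and repulsive actions, had a mean of 34.6 CPM in the 14 (lowest 0, median 17.6, highest 143) against 687 CPM in visceral motor-like nuclei, a ratio of 19.9, and all 14 lay below the visceral motor-like median of 666 CPM. In the 8 its mean was 341 CPM. Efna5 had a mean of 150 CPM in the 14 (lowest 0.61, median 113, highest 421) against 1220 CPM, a ratio of 8.14, and all 14 lay below the visceral motor-like median of 1051 CPM. In the 8 the mean of Efna5 was 669 CPM. In single visceral motor-like clusters, the mean of Sema5a was 199 CPM in cluster 8 and that of Efna5 258 CPM in cluster 10. The difference between the 14 and the 8 was not tested.

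Further members separated the sets. Sema6a, a ligand of Plxna2 and Plxna4, had a mean of 378 CPM in the 14 against 117 CPM in visceral motor-like nuclei, and all 14 were above that class's median of 67.1 CPM; in the 8 the mean was 50.4 CPM. Sema3d was at 69.3 CPM in the 14 against 17.8 CPM. In single visceral motor-like clusters, the mean of Sema6a was 320 CPM in cluster 7 and that of Sema3d 66.8 CPM in cluster 9. Sema4a was lower in the 14, at 5.89 against 35.6 CPM, as were Sema5b (11.3 against 51.8 CPM) and Plxna3 (20.4 against 79.0 CPM). Sema3e and Sema7a, counted as higher in the cluster of 22 by level, met that rule through the 8. Sema3e had a mean of 150 CPM there and 19.7 CPM in the 14, against 20.1 CPM, and Sema7a 18.7 and 3.99 CPM against 1.71 CPM. The mean of Sema7a in the 14 was thus also above the visceral motor-like mean, but under the limit of 5 CPM. Only 4 of the 8 had a read of Sema7a. Without the highest of the 8, the mean was 98.6 CPM for Sema3e and 10.04 CPM for Sema7a. Without the highest of the 14, it was 2.62 CPM for Sema4a, 4.63 CPM for Sema5b and 12.2 CPM for Plxna3.

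In the 8, set against the pooled visceral motor-like nuclei, Plxnc1 and Nrp1 were low and Ephb1 was high. Plxnc1 had a read in 2 of the 8 and a mean of 10.7 CPM, against 94.9% of visceral motor-like nuclei at full depth and 118 CPM, and it was the member lower by share. Nrp1 was at 76.9 against 305 CPM, Unc5c at 226 against 786 CPM and Slit1 at 9.53 against 39.2 CPM. Ephb1 had a mean of 354 CPM against 95.5 CPM, and all 8 nuclei (lowest 89.1 CPM) lay above the visceral motor-like median of 35.2 CPM. Without the highest of the 8, the mean was 0.083 CPM for Plxnc1, 34.6 CPM for Nrp1, 117 CPM for Unc5c and 6.05 CPM for Slit1. The visceral motor-like cluster numbered 8 below went the same way for Nrp1 (96.1 CPM), Unc5c (139 CPM) and Ephb1 (463 CPM). Plxnc1 and Slit1 were not low in that cluster, at 194 and 36.5 CPM.

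**Figure D3:**
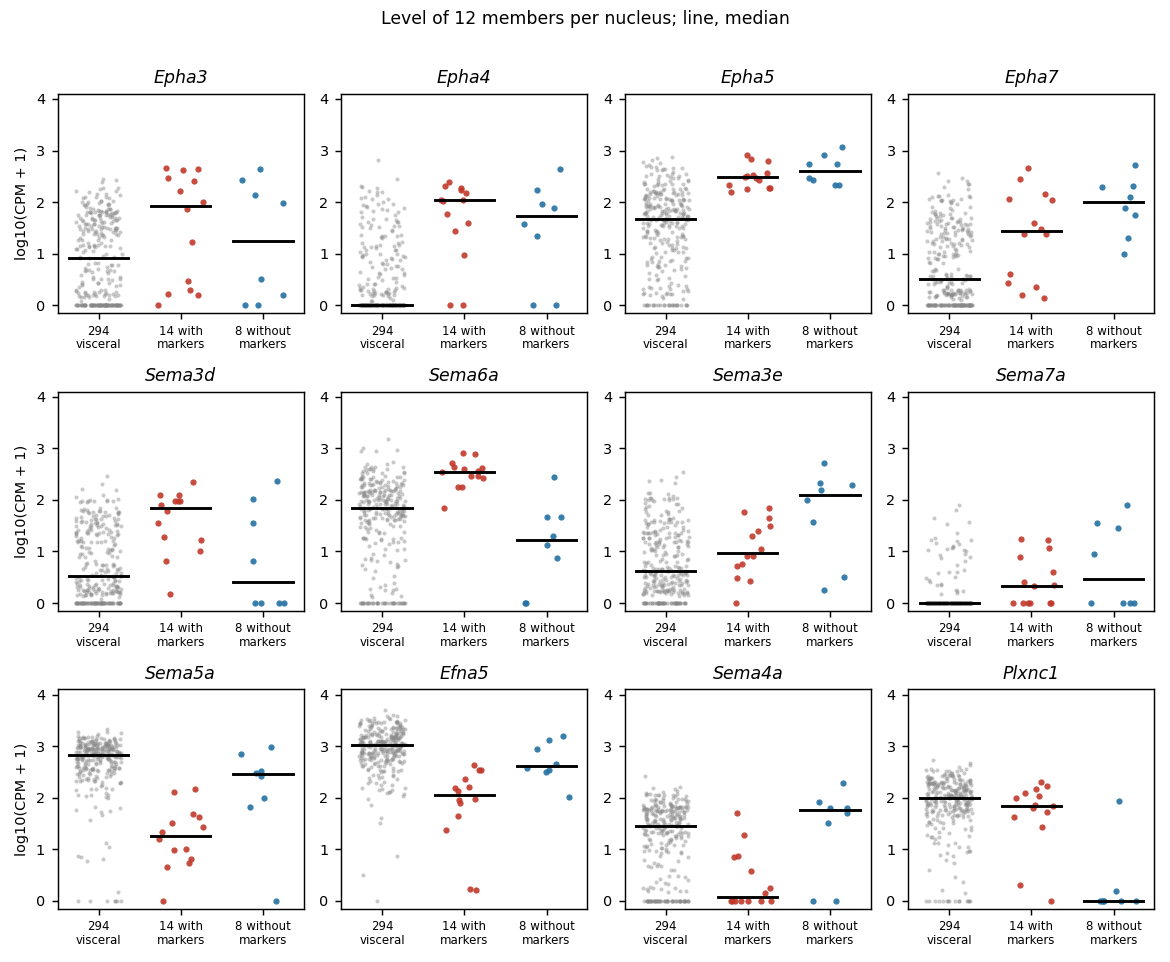
Level of 12 members in each nucleus, as log10(CPM + 1), in 294 visceral motor-like nuclei, the 14 nuclei of the somatic motor-like cluster that carry its markers and the 8 that do not; lines are medians. Epha5 is high in both small sets, Sema5a and Efna5 are lowest in the 14, and Plxnc1 is at 0 in most of the 8.

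Just outside the limits for the cluster of 22 were Unc5c, with 277 against 786 CPM, Sema4f with 25.3 against 67.7 CPM and Sema3a with 112 against 42.8 CPM, and by share Plxnc1 (36.9 points lower: 59.1% against 96.0%), Sema7a (33.0 points higher) and Epha7 (30.5 points higher). The labels number the nuclei but name no block or plate. For a further comparison the numbers were cut into 4 runs of 96, called blocks here, with 3 to 7 of the 22 in each. Whether these blocks match plates or batches is not known. The 10 members counted by level lay in the same direction in all 40 block comparisons, but they were chosen on the same nuclei. Marker shares of glia and vessels were similar in the classes (astrocyte markers 19.1% and 21.2%, vascular markers 24.5% and 22.3%). Single markers went both ways. After thinning no nucleus of the cluster of 22 had a read of Gfap, Mog, Csf1r, Tmem119, Cldn5 or Vtn. No read in 22 nuclei allows a share of up to 15.4%. In visceral motor-like nuclei Mog was at 25.6% and Gfap at 18.7%, but Csf1r, Tmem119, Cldn5 and Vtn were below 15.4%. In the opposite direction, Slc1a3 was in 50% of the cluster of 22 against 37.0%, and Flt1 in 54.5% against 46.9%. Aldh1l1, Mobp and P2ry12 were also higher there. At full depth the mean shares in that cluster were 28.2% for astrocyte, 32.7% for vascular and 18.2% for microglial markers. By contrast, catecholaminergic markers were after thinning at 24.5% in the cluster of 22 and 52.3% in visceral motor-like nuclei. Their part in the results was not tested.

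Among the 57 other pathway genes, Flrt2, an adhesion protein that binds Unc5 receptors, was higher in the cluster of 22 by both rules (77.3% against 31.1% of thinned nuclei, means 69.2 and 9.56 CPM). Mical2, Chn2 and Vav3, which act on actin or its regulators, were higher by level. In all, 4 of 55 were higher (4.36% of all genes) and 3 lower (8.87%). The 3 were Neo1, a receptor of netrins and of Rgma (52.8 against 181 CPM), Ntng1 (441 against 1829 CPM) and Rgma (6.83 against 42.4 CPM). In the 14 alone 3 of 55 were higher by level (4.7% of all genes) and 6 lower (11.9%). In the 8 alone 5 were higher (7.9%) and 7 lower (16.6%).

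The starts of 4 of these genes are shown, because Epha4 and Epha5 were higher and Efna5 and Sema5a lower in the 14 nuclei. Each window has 300 bases around the annotated start, from RefSeq on build GRCm38.p6, printed 5′ to 3′ on the gene's strand: Epha4 at chr1:77515039-77515338 (minus strand), Epha5 at chr5:84417333-84417632 (minus), Efna5 at chr17:62881268-62881567 (minus) and Sema5a at chr15:32244563-32244862 (plus). Capitals mark GGGCGG or its reverse complement CCGCCC, the core of the GC box, and TAATTA, a core that many homeodomain factors bind.
Epha4: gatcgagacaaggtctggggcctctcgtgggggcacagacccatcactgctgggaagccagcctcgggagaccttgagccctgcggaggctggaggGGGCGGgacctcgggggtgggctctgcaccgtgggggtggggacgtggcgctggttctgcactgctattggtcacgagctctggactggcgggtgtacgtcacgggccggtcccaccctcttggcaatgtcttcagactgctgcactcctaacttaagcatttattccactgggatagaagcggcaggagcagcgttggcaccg
Epha5: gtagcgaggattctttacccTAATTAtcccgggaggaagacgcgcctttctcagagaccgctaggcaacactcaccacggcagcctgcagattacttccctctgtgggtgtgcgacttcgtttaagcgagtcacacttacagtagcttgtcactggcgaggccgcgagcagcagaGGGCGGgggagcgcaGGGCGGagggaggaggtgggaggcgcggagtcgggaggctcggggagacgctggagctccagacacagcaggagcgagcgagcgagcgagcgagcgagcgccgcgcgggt
Efna5: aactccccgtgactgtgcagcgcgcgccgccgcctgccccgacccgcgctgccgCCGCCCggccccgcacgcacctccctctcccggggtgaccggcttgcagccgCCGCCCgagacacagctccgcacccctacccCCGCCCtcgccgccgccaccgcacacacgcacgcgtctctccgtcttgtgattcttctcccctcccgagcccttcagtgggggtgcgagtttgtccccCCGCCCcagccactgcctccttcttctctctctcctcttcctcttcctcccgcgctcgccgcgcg
Sema5a: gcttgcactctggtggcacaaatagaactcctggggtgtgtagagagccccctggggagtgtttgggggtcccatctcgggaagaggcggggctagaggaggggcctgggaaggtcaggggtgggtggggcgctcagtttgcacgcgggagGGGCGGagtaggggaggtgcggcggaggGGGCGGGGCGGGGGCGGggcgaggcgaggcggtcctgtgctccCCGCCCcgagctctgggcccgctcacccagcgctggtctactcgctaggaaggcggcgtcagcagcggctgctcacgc
The GC box core occurs 1 time in the Epha4 window, 2 times in Epha5, 4 times in Efna5 and 5 times, in part overlapping, in Sema5a. On either strand it is in 35.7% of 32851 windows of all genes and in 70.3% of 74 windows of the 58 members that have one. Members' windows are also richer in G and C, with a median of 64.2% against 52.7%. TAATTA is in the Epha5 window alone of the 4; it is in 5.29% of all windows and 4.05% of the members' windows. A match is a description of the letters and not evidence of binding.

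Within the visceral motor-like nuclei, members differed among clusters about as often as other genes. The 294 nuclei fell into 12 clusters, of which 11 had at least 8 nuclei after thinning. Between the highest and the lowest cluster, 18 of 55 members differed by at least 40 points with intervals apart, where 32.6% of all genes did and 30.6% of genes not used for clustering, so the count is near the background and is no result about the family. Of the pathway genes 12 of 56 met the rule, among them Rgma, Ntng2 and Ngef.

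Cluster 8, with 20 thinned nuclei, was at an extreme for 8 of the 18, in part by a tie or a narrow lead. It was led by Hs6st2, Pappa and Ccbe1, and Cck and its receptor gene Cckar had reads in 68% and 84% of its nuclei. Efnb2 was in 5.00% of its nuclei (0.13 to 24.9%) and in 84.2% of cluster 9. Ephb1 was in all of them and in 42.9% of cluster 1 (26.3 to 60.6%), Ntn1 in 90.0% against 29.6% in cluster 4, Efnb3 in 65.0% against 7.41% in cluster 4, Efna3 in 60.0% against 17.2% in cluster 3, and Sema3c in all against 55.6% in cluster 2. Nrp2 was in 50.0% of cluster 8 (27.2 to 72.8%) and in all 35 nuclei of cluster 1, and Epha3 was in 45.0% of cluster 8 against 90.5% of cluster 7. Other clusters came close for some of these: Sema3c was also in all nuclei of clusters 9 and 11, and Ntn1 in 89.5% of cluster 9. Efna3 was in 55.6% of cluster 6 and Epha3 in 50.0% of cluster 11. Without cluster 8 the rule was no longer met by Nrp2, Efnb3, Epha3 and Efna3.

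Levels in cluster 8 showed more members apart, named here after their values were seen. Unc5d had a mean of 4048 CPM there and 80.9 CPM in cluster 2. Unc5c was at 139 CPM against 1239 CPM in cluster 2, Slit2 at 71.6 against 705 CPM, Sema5a at 199 against 1169 CPM and Nrp1 at 96.1 against 353 CPM. Sema3c was at 380 CPM in cluster 8 and 13.7 CPM in cluster 2, Ephb1 at 463 and 79.1 CPM, and Epha5 at 323 and 21.4 CPM. Cluster 10, led by Sorcs1 and Tshz2, shared the high Unc5d (4465 CPM) and Robo2 (799 CPM, against 794 CPM in cluster 8) but not the low Slit2 (970 CPM) or Unc5c (884 CPM). Dcc was highest in cluster 2, which was led by Bmpr1b and Syt10, at 5320 CPM, and lowest in cluster 1 at 478 CPM.

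Cluster 9 carried more reads of other cell types. Its 19 thinned nuclei had the highest mean shares of these markers among the 11 clusters, at 49.5% for astrocytes, 47.4% for oligodendrocytes, 42.1% for vessels and 31.6% for microglia, and a median of 12224 genes after thinning. It held the highest shares of Efnb2, Sema3d (94.7% against 30.0% in cluster 11), Robo3 (57.9% against 0 of 10 nuclei in cluster 11, which allows up to 30.8%), Epha2 (57.9% against 0 of 13 in cluster 10, which allows up to 24.7%) and Ntn4 (78.9% against 25.0% in cluster 2), and the lowest of Plxna3 (36.8% against 100% in cluster 3). Without it, 14 members met the rule, and Robo3, Sema3d, Plxna3 and Epha2 no longer did. The part of other cells' RNA in these shares was not tested.

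The other clusters gave fewer extremes. Cluster 7, where Cartpt was found in 76.9% and the injury-response gene Atf3 in 69.2% (Cartpt was in 80.6% of cluster 2 and Atf3 in 76.2% of cluster 9), had the highest shares of Unc5b (57.1% against 3.45% in cluster 3), Sema3e (95.2% against 48.1% in cluster 4) and Epha3, and the lowest of Slit1 (42.9% against 100% in cluster 11). The lead was narrow for Sema3e, which was in 94.7% of cluster 9. Sema5b was in 100% of cluster 10 and 44.8% of cluster 5. Efnb1 was in 51.9% of cluster 4 and 6.90% of cluster 3. In cluster 7 the markers of other cells were also frequent, with mean shares of 33.3% for astrocytes and 38.1% for vessels, and their part was not tested.

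**Figure D4:**
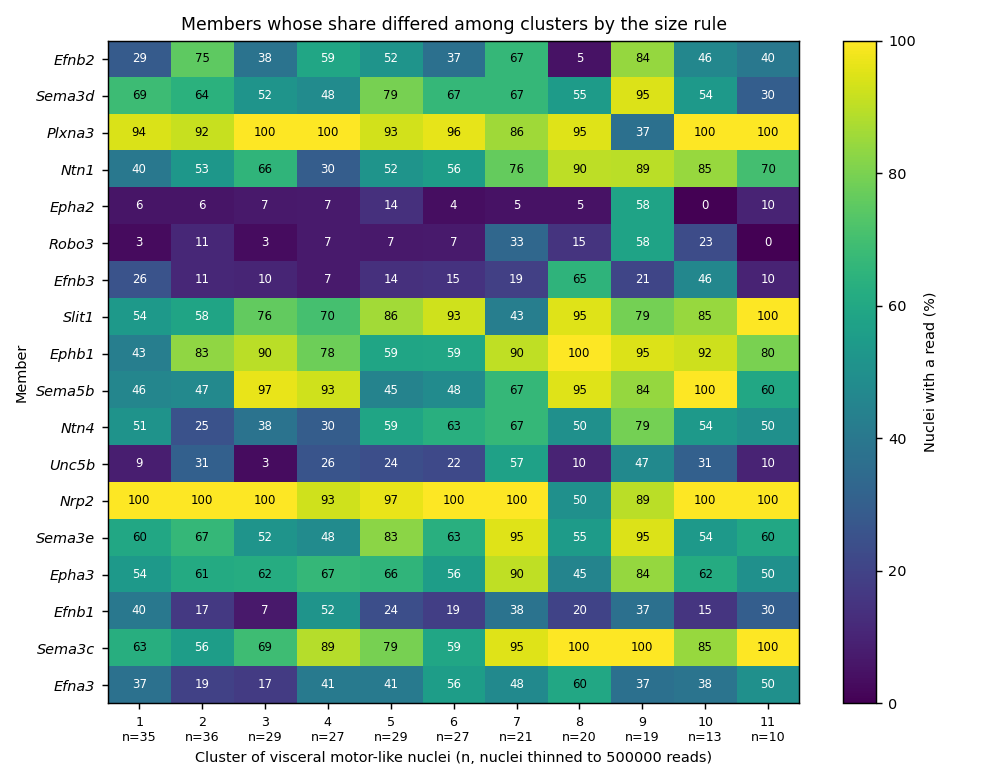
Share of nuclei with a read (%, colour and number) for the 18 members that met the size rule, in 11 clusters of visceral motor-like nuclei thinned to 500000 reads. Efnb2 is at 5% in cluster 8, and Robo3, Epha2 and Plxna3 stand apart in cluster 9.

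Levels of members were also compared with each other across 273 thinned visceral motor-like nuclei, for the 41 members found in over 50% of them. The nuclei share a sample, a sort and a preparation, and no test was made. The 820 rank correlations had a median of 0.01; 36 were above 0.3 and 26 below −0.3. The 5 highest were Slit2 with Unc5c (0.50), Sema5b with Sema6d (0.46), Sema5b with Ephb1 (0.46), Nrp1 with Nrp2 (0.46) and Robo2 with Unc5d (0.45). The 5 lowest were Unc5d with Nrp2 (−0.51), Nrp1 with Ephb1 (−0.49), Sema5a with Epha5 (−0.45), Sema5b with Nrp2 (−0.45) and Sema3c with Nrp1 (−0.44).

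Apart from Slit2 and Unc5c, the members of these pairs can be sorted into 2 opposed groups. The groups were formed from the signs of these same correlations, so they describe them and are no separate result. Nrp1, Nrp2 and Sema5a lay on 1 side, and Unc5d, Robo2, Sema5b, Sema6d, Sema3c, Epha5 and Ephb1 on the other. Dcc and Unc5d, both netrin receptors, were at −0.34, while Dcc was at 0.41 with Unc5c and 0.40 with Slit2; these 3 values were picked after they were seen. Within the 8 clusters of at least 20 thinned nuclei the relations were weaker: the median over clusters was 0.04 for Nrp1 with Nrp2, −0.16 for Unc5d with Nrp2 and −0.09 for Nrp1 with Ephb1, but 0.39 for Robo2 with Unc5d and 0.29 for Slit2 with Unc5c. So part of the pattern lies between clusters. Without cluster 8, the 10 named correlations kept their sign, from 0.47 for Sema5b with Sema6d to −0.47 for Unc5d with Nrp2.

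Another group, Sema3a, Sema3d, Sema3e and Epha3, went together (0.40 for Sema3a with Epha3 and 0.36 for Sema3d with Sema3e). The levels of these 4 also had the highest rank correlations with the number of genes found in a thinned nucleus, from 0.28 for Sema3a to 0.35 for Sema3d. The part of that number in the relation was not tested.

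**Figure D5:**
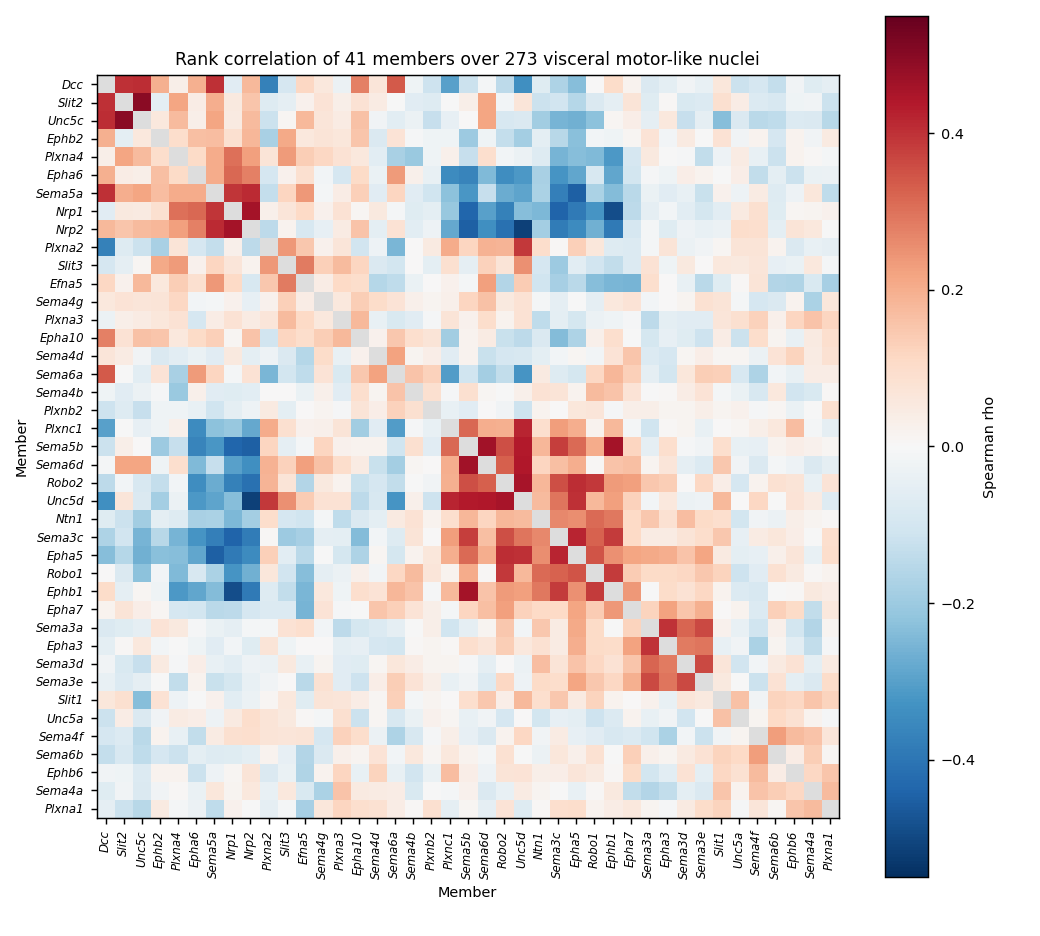
Spearman rank correlation between 41 members over 273 visceral motor-like nuclei thinned to 500000 reads (red, positive; blue, negative; grey, a member with itself), ordered so that members with like patterns are neighbours. Nrp1, Nrp2 and Sema5a are negative against Unc5d, Sema5b, Epha5 and Ephb1, down to −0.51.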

How the data were processed

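The deposited table holds whole-number read counts per gene and nucleus. Per the submitters' processing notes, bcl2fastq, STAR, Picard, edgeR, Seurat 3 and build GRCm38 were used; what each did, the gene models, how reads were assigned and whether strand was used are not given in the sources used here. The labels' protocol also mentions sections of the SCN, while the tissue label is the vagal nucleus. The members, lists and rules were chosen with earlier results of these data known.

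Nuclei with fewer than 1000 genes with a read were left out (67 of 383). CPM was the count over the nucleus's total. For shares compared between classes or clusters, 295 nuclei were thinned to 500000 reads, and 21 shallower visceral motor-like nuclei were left out. Mean CPM of classes and clusters included these 21. No nucleus repeated another's counts. No doublet caller was run, since 1 nucleus was sorted per well. Clustering used 2000 variable genes, 15 principal components, 10 neighbours and Leiden resolution 1, without the members, the pathway genes or 111 mitochondrial and ribosomal genes. With 1 sample no test was made. A share differed at 40 points or more with 95% intervals apart, and a level at 3-fold or more with 5 CPM or more in the higher class. The scripts were tested on simulated data. One marker gene is not reported here.

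Named were the 3 highest and lowest members by share in each group, all members past a rule, the 3 nearest each limit, the 20 widest among clusters, pairs over 50% or under 10%, and the 5 highest and lowest correlations. Alternatives covered detection, depth, filters, limits, scaling and clustering. Python 3.11.15, numpy 2.4.6, pandas 2.3.3, scipy 1.17.1, scanpy 1.11.5, leidenalg 0.10.2 and matplotlib 3.10.9 were used.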

Additional observations from a re-analysis of the deposited data

Results flagged for a closer look

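Reads of the family were also present in the 67 nuclei left out of all comparisons, which had between 107 and 988 genes with a read. Of the 68 members, 14 were found in more than 3 of these nuclei. Dcc was found in 26 of the 67, Efna5 in 23, Epha6 in 18, Sema6d and Slit3 in 15 each and Unc5c in 14. Robo4, rare among the kept nuclei at 7.59%, was found in 7 of the 67 (10.4%).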

How the results depend on the processing

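The counts of common members (38 to 44), of common pairs (14 to 20), of members differing among clusters (12 to 22) and of correlations past 0.3 in size (45 to 64) stayed within 1.5 times the reported ones under the alternatives run. The counts for the cluster of 22 did not. Lower by level were 7 among nuclei with at least 2000 genes, 9 at a limit of 2-fold, 8 in the 14 nuclei with somatic motor markers, 5 in the 8 without and 2 without the highest nucleus. Higher by level were 12 at 2-fold and 5 without the highest nucleus. Higher by share were 3 at a limit of 30 points and 0 with scaled clustering or in the 8 nuclei, and lower by share was 1 in each of these 3 settings. The log2 ratio of Sema3e turned to −0.27 with at least 2000 genes and −0.026 in the 14 nuclei; with at least 2000 genes the 8 nuclei with the higher levels count as visceral motor-like, and in the other setting they are left out. Epha4 missed the share limit without thinning (36.9 points) and with scaled clustering (39.6 points). Scaled clustering, the 14 and 8 nuclei, leaving out the highest nucleus and leaving out cluster 8 or 9 were chosen after seeing the data. No paired analysis was possible because all nuclei belong to 1 group. With 1 sample, no value here measures the spread between animals. Shares depend on depth, for common members with low levels as well as for rare ones. From the 316 nuclei at full depth to the 295 thinned ones, Sema3e fell from 83.5% to 68.1% and Epha7 from 73.7% to 62.7%. Members near 20% or less varied. Plxnb1 fell from 20.6% to 14.6% and Efnb3 from 19.9% to 19.3%, while Ntn5 rose from 4.75% to 5.08%. The part of other cells' RNA in members near 20% or less was not tested.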
